A study of Homo sapiens with 18 samples.

Results

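The 10 Fanconi anaemia genes described here are FANCA, FANCB, FANCC, FANCD2, FANCE, FANCF, FANCG, FANCI, FANCL and FANCM, out of 57905 genes counted in each of 18 RNA-seq libraries. They were taken by symbol, through the Ensembl identifier of each row of the count files, and each of the 10 symbols had 1 row. The RNA came from 2 human cell lines, KMS12-BM, derived from multiple myeloma, and JJN3, derived from plasma cell leukemia. Each line had 3 libraries of cells labelled untreated (DMSO), with no duration given, 3 of cells given amiloride for 24 h and 3 of cells given TG003 for 24 h. Amiloride, a diuretic that blocks sodium channels and sodium-proton exchangers, was used at 0.1 mM in KMS12-BM and at 0.4 mM in JJN3. TG003, which inhibits CLK kinases, enzymes that act on splicing proteins of the SR family, was used at 0.4 mM in both. No label tells if a group's 3 libraries are from separate cultures, and p-values here measure only the spread between them, which may be technical. Each line is a single established line and stands for itself.

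The Fanconi anaemia pathway repairs interstrand crosslinks, lesions that join both strands of DNA and stop replication forks. Most of the genes encode subunits of a nuclear core complex that works as a ubiquitin ligase, in which FANCL is the catalytic subunit. The complex ubiquitinates FANCD2 and FANCI, which form a pair that clamps on DNA and brings in nucleases and recombination proteins. FANCM is a DNA translocase that holds the complex on chromatin, and the remaining subunits are scaffolds and adaptors. Inherited loss of the pathway causes bone marrow failure, and many of its genes are transcribed most strongly in cycling cells.

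In hg19 coordinates, as given by the annotation, FANCA lies at chr16:89793091-89883385 on the minus strand, FANCB at chrX:14708510-14891377 (minus), FANCC at chr9:97861336-98189078 (minus) and FANCD2 at chr3:10068054-10143616 (plus). FANCE lies at chr6:35420115-35434881 (plus), FANCF at chr11:22644079-22647369 (minus) and FANCG at chr9:35073832-35080001 (minus). FANCI lies at chr15:89787176-89860492 (plus), FANCL at chr2:58386378-58468545 (minus) and FANCM at chr14:45605133-45670093 (plus). All are protein-coding. Their canonical transcripts differ widely in exon structure. FANCF has 1 exon, whereas FANCD2 has 44, FANCA 43 and FANCI 38. Per kb of transcript, FANCD2, FANCL, FANCI and FANCA have the most exon junctions, between 7.70 and 8.44, and FANCB, FANCC, FANCE and FANCM have between 2.98 and 3.49.

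Promoter windows, from 250 bases before to 50 bases after the start site, were taken from RefSeq on GRCh38.p14 and were found for 9 of the 10 genes, all but FANCI. Those of 4 genes are shown because they belong to the genes whose responses differed most: FANCD2 and FANCL, which were called in the same direction in each comparison of a drug with DMSO, FANCF, which was called in the opposite direction in 3 of these 4 and not called with amiloride in JJN3, and FANCC, which was called lower with amiloride in KMS12-BM and stood near its controls in JJN3. FANCD2 is at chr3:10026187-10026486 on the plus strand, and the others are on the minus strand, FANCL at chr2:58241276-58241575, FANCF at chr11:22625774-22626073 and FANCC at chr9:95317660-95317959. Capitals mark matches, on either strand, to the motifs searched.
FANCD2: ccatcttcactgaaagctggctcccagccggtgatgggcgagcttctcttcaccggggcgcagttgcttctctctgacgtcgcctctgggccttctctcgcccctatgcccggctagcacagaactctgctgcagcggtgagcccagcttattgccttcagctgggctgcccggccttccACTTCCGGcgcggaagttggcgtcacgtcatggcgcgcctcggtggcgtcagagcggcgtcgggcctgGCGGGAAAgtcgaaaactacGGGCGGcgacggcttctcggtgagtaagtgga
FANCL: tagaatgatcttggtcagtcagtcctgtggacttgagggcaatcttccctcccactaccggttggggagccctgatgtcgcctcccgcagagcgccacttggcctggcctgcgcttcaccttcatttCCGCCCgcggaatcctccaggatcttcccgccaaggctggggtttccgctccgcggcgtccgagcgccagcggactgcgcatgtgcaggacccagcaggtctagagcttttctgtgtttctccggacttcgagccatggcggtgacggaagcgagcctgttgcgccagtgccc
FANCF: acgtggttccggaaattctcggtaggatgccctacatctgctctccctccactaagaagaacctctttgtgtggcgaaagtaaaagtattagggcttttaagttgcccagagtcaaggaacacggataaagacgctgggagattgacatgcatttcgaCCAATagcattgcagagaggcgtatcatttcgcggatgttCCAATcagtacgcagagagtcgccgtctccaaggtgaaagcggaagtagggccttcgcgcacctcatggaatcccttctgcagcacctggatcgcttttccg
FANCC: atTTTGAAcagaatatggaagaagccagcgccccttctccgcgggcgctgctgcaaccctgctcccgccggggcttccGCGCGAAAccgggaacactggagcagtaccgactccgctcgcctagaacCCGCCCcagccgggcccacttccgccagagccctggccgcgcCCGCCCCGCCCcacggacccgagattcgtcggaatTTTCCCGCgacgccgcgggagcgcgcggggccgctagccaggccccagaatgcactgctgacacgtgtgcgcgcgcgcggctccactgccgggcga
The E2F site was searched as TTTCCCGC, TTTGGCGC and TTTCGCGC, the CHR element as TTTGAA, the CCAAT box as CCAAT, the GC box as GGGCGG, the ETS site as CCGGAAGT, and NRF1 by its palindromic site. Each was searched on both strands. No match to one motif overlapped a match to another in these windows, while 2 GC boxes of FANCC overlap each other. Of the 9 windows, those of FANCC and FANCD2 held an E2F match, against 2.74% of the 35116 promoters of the same length. FANCD2 had 1 such match, starting 2 bases before the start site, and FANCC had matches starting 172 and 46 bases before it. FANCF had CCAAT matches starting 92 and 52 bases before the start site, and FANCM and FANCA also held the CCAAT box, which 34.6% of promoters hold. FANCF and FANCM were the only windows of the 9 without any GC box, which 45.0% of promoters hold. The G+C content was 50.7% in the FANCF window and 48.0% in that of FANCM, against 63.0% to 73.7% in the other 7.

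Reads assigned to genes numbered 29794926 to 50570234 per library in KMS12-BM and 23707695 to 44601334 in JJN3, of which the 10 genes held 7389 to 32402 reads. The TG003 libraries stood apart from the rest in how reads were placed. Processed pseudogenes held 0.106% to 0.130% of the reads in the 6 TG003 libraries and 4.50% to 5.63% in the other 12, and alignments at more than 1 place made up 7.79% to 9.13% of the records against 13.3% to 17.4%. A processing difference and the drug cannot be told apart. All 9 plasma cell markers had reads in every library of both lines, at very different levels in CPM (the count after scaling to a common library size). IRF4, XBP1, PRDM1, MZB1 and TNFRSF17 stood at 18.6 CPM or more in all 18. SDC1 measured 2.35 to 14.0 CPM in KMS12-BM and 81.1 to 174.6 in JJN3, and JCHAIN 0.731 to 2.94 in KMS12-BM and 1120 to 3526 in JJN3. CD38 measured 42.3 to 109.4 CPM in KMS12-BM and 2.07 to 6.83 in JJN3, and SLAMF7 reached at most 0.778 and 2.79. The B cell factor PAX5 stood at 36.5 to 69.9 CPM in KMS12-BM and at most 0.0564 in JJN3. The 4 T cell and NK cell markers summed to 0.690 to 2.75 CPM, with CD3D at most 0.0256 and CD3E up to 2.29, and the 4 monocyte markers summed to 0.271 to 2.34. Of the red cell and stromal markers, HBB measured 21.3 to 65.8 CPM in JJN3, HBA1 5.05 to 11.03 in KMS12-BM, and COL1A2 at most 0.0946 in either.

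With DMSO alone, the genes differed widely in level per kb of transcript, and the order was similar at its top and bottom in both lines. In KMS12-BM, FANCG and FANCI led with 34.5 ± 3.01 and 34.5 ± 3.45 CPM per kb (SD, n = 3), and their ranges overlapped. FANCD2 followed at 18.7 ± 3.46, FANCE at 14.9 ± 0.910 and FANCF at 10.8 ± 0.377 CPM per kb. The ranges of FANCD2 and FANCE overlapped. FANCC (5.79 CPM per kb), FANCL (5.47), FANCB (4.98) and FANCA (4.23) were close together, and FANCM was lowest at 3.0 ± 0.269. In JJN3 the order was FANCI at 36.7 ± 1.35, FANCG at 17.7 ± 0.664, FANCD2 at 17.5 ± 1.77, FANCF at 14.7 ± 0.428, FANCE at 11.6 ± 0.610 and FANCA at 9.17 ± 0.232 CPM per kb. FANCL (5.6) and FANCC (5.41) came next, and FANCB (2.29) and FANCM (2.21) were lowest. Within each of these pairs, and between FANCG and FANCD2, the ranges overlapped. The catalytic subunit was thus among the less abundant transcripts, and both substrates were among the most abundant.

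Between the lines with DMSO, 6 of the 10 genes passed edgeR's quasi-likelihood test, 2 higher and 4 lower in JJN3. Here and below a gene is called where its p, adjusted by Benjamini and Hochberg's method over all genes tested, is under 0.05. Of the 17772 genes tested, 76.0% were called, 39.3% higher and 36.8% lower, so the share among these 10 is no higher than the background. The libraries of the lines did not overlap for 6 of the 10, against 78.5% of all genes. FANCA measured 24.4, 21.9 and 22.9 CPM in KMS12-BM and 50.1, 51.2 and 48.7 in JJN3, so that the groups did not overlap. Its log2 difference was 1.115 ± 0.09 (SE, here and below for log2 values; adjusted p = 4.33e-10). FANCG, which binds FANCA in the complex, went the other way, from 96.8, 86.2 and 81.8 CPM in KMS12-BM to 47.0, 43.7 and 44.8 in JJN3. The log2 difference was -0.97 ± 0.09 (adjusted p = 5.72e-09). FANCB, which sits with FANCL in the catalytic module, was lower in JJN3 by a similar amount, -1.117 ± 0.14 (adjusted p = 3.15e-07). FANCE, which contacts FANCD2, and FANCM were lower in JJN3 by smaller amounts, -0.36 ± 0.09 (adjusted p = 0.00147) and -0.44 ± 0.09 (adjusted p = 0.000206). FANCF, an adaptor of the complex, was higher in JJN3 at 0.45 ± 0.08 (adjusted p = 2.89e-05), and this fell to 0.28 once a trend on exon junctions was removed. FANCC, FANCD2, FANCI and FANCL did not pass the test, with 95% intervals from -0.26 to 0.07, -0.40 to 0.21, -0.14 to 0.31 and -0.28 to 0.34.

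Overlapping genes bear on some of these counts, since the strand setting of the counting is not given in the sources used here. FANCA shares 2409 exonic bases, 19.6% of its exonic length over all transcripts, with ZNF276 on the opposite strand, which was also higher in JJN3 with DMSO (46.4 against 14.3 CPM on average). FANCF shares 315 bases, 9.57% of its length, with GAS2 on the opposite strand. GAS2 averaged 79.8 CPM in JJN3 with DMSO and 0.0442 CPM in KMS12-BM. Reads of shared bases cannot be told apart without strand, and the levels of FANCA and FANCF are uncertain to that extent. FANCB shares 844 bases with a processed pseudogene on its own strand, which had 4 to 33 reads per library. FANCD2 is the only one of the 10 with near-identical copies elsewhere in the genome (at least 97% identity over at least 75 bases), over 732 of the 5096 bases of its transcript. The pseudogene FANCD2P2 had 0 to 34 reads, and adding them to FANCD2 changed no call.

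**Figure D1:**
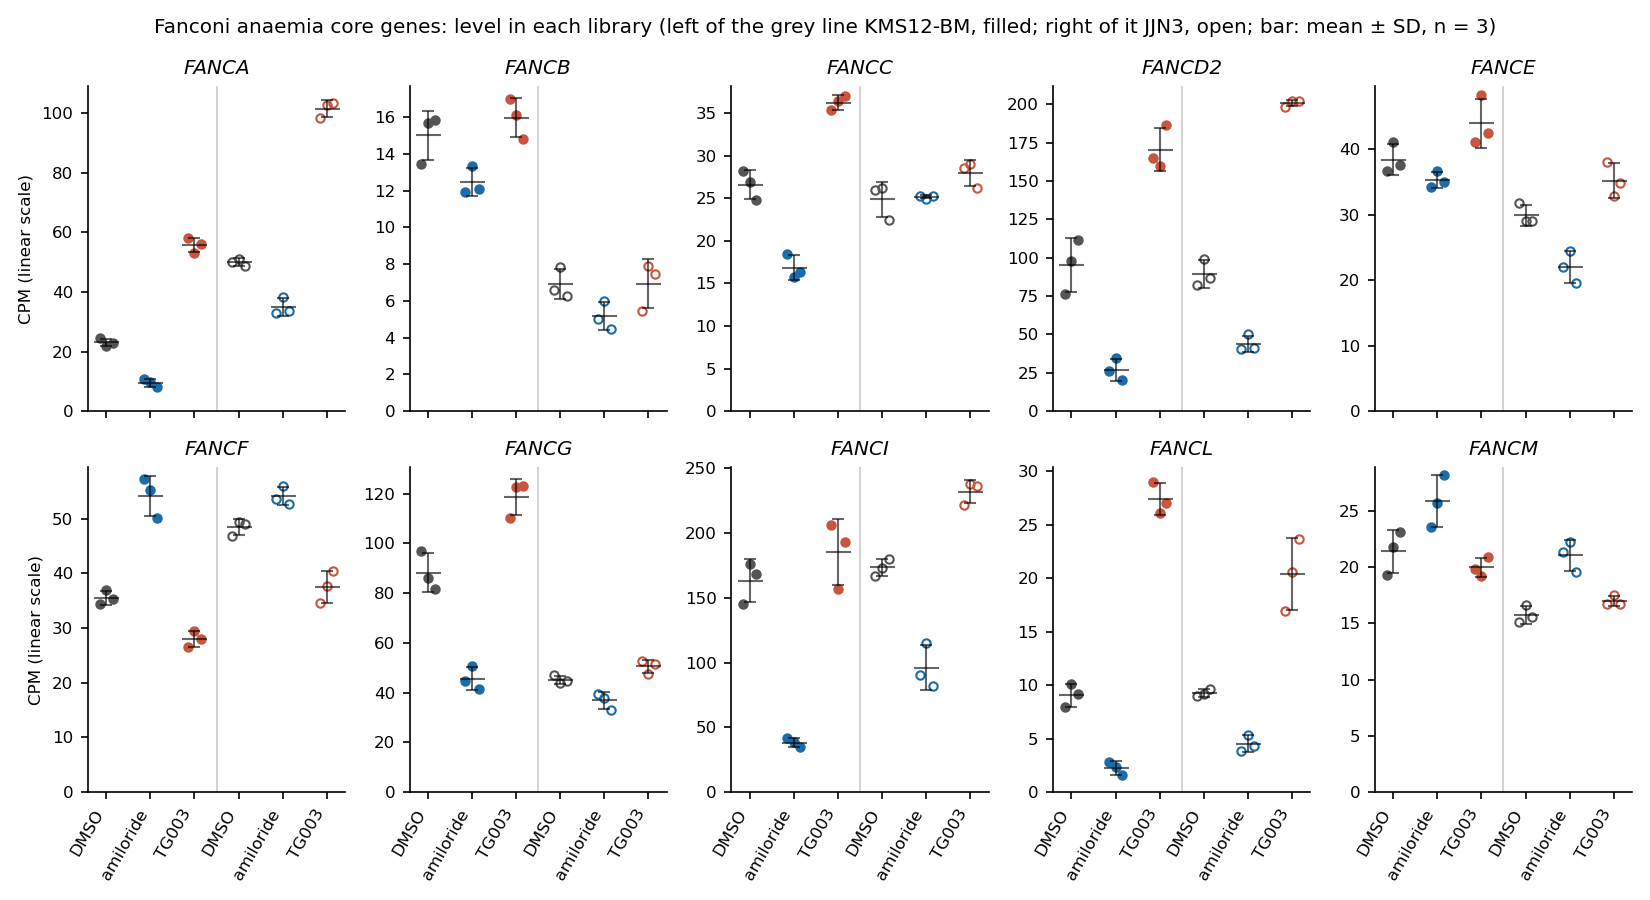
Level of each gene in each library, in CPM on a linear axis from 0, with KMS12-BM (filled) left of the grey line and JJN3 (open) right of it; points are libraries and bars are the mean ± SD of 3. FANCA, FANCD2, FANCI and FANCL drop with amiloride and FANCA, FANCD2 and FANCL stand above DMSO with TG003 in both lines, while FANCF shows the opposite order in KMS12-BM.

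In KMS12-BM, amiloride lowered most of the pathway's core. Of the 10 genes, 7 were lower and 2 higher than with DMSO, and 1 did not pass the test. Over all 15765 genes tested, 68.7% were called, 35.2% lower and 33.5% higher. The treated libraries did not overlap the controls for 9 of the 10, against 71.7% of all genes. The members' median log2 change was -0.80, against -0.02 over all genes. In bulk RNA, fewer cells expressing a gene and less RNA per cell cannot be told apart.

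The substrate pair and the ligase subunit had the largest falls. FANCI measured 144.9, 176.3 and 168.6 CPM with DMSO and 41.5, 38.6 and 34.8 with amiloride. Every treated library lay far below every control, a 4.26-fold difference (log2 -2.09 ± 0.12, adjusted p = 7.97e-08). FANCL, the catalytic subunit, fell from 7.95, 10.1 and 9.14 CPM to 2.86, 2.31 and 1.58. That is a 3.98-fold difference with no overlap (log2 -1.99 ± 0.17, adjusted p = 1.5e-06). FANCD2 stood at 76.6, 98.1 and 111.5 CPM with DMSO and at 26.0, 34.4 and 20.4 with amiloride. The controls spread more for this gene than for most others, but the groups did not overlap (log2 -1.82 ± 0.19, adjusted p = 1.04e-05). The ratio of FANCD2 to FANCI per kb was 0.491 to 0.614 with DMSO and 0.544 to 0.827 with amiloride, ranges that overlap.

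Among the scaffold subunits, FANCA fell 2.40-fold to 10.8, 9.75 and 8.17 CPM (log2 -1.26 ± 0.11, adjusted p = 1.24e-06), while the overlapping ZNF276 rose (log2 0.70 ± 0.10, adjusted p = 9.56e-05). FANCG, its partner, fell 1.93-fold to 44.5, 50.8 and 41.6 CPM (log2 -0.95 ± 0.10, adjusted p = 4.91e-06). FANCC, of the module that binds the substrates, went from 28.2, 26.8 and 24.8 CPM to 18.5, 15.7 and 16.4, without overlap (log2 -0.66 ± 0.09, adjusted p = 5.93e-05). FANCE, of the same module, measured 36.6 to 41.1 CPM with DMSO and 34.3 to 36.6 with amiloride. The highest treated library just reached the lowest control, and the log2 difference of -0.12 ± 0.09 did not pass (adjusted p = 0.233, 95% interval -0.29 to 0.05). FANCF, the third gene of this module, rose. It measured 34.45, 36.89 and 35.29 CPM with DMSO and 57.20, 55.23 and 50.04 with amiloride (log2 0.61 ± 0.08, adjusted p = 4.23e-05), and GAS2 stayed below 0.359 CPM in all of these libraries. FANCB was lower by 0.27 ± 0.10 on the log2 scale (adjusted p = 0.0316), and FANCM was higher, from 19.3, 21.8 and 23.1 CPM to 23.6, 25.7 and 28.2 (log2 0.27 ± 0.10, adjusted p = 0.0277).

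The calls of FANCB and FANCM in KMS12-BM were weak. FANCB no longer passed without DMSO replicate 2 or 3 or amiloride replicate 1 or 3 (adjusted p 0.0721 to 0.104), and FANCM no longer passed without DMSO replicate 1 or 2 or amiloride replicate 2 or 3 (adjusted p 0.0566 to 0.101). Change with amiloride in KMS12-BM moved with the G+C content of genes: the median log2 change of coding genes went from 0.38 in the quintile with the lowest G+C content to -0.60 in the quintile with the highest. With that trend removed, FANCE was called higher (log2 0.30, adjusted p = 0.0122), FANCM came to -0.11 (adjusted p = 0.247), FANCB to -0.67 and FANCG to -0.54. FANCI, FANCL and FANCD2 came to -2.29, -2.30 and -1.97. Change also moved with exon junctions per kb, with a median of 0.14 in the lowest quintile of multi-exon coding genes and -0.26 in the highest. With that trend removed instead, FANCI, FANCL and FANCD2 came to -1.69, -1.60 and -1.41, and FANCA to -0.87, all still called. Mitochondrially encoded RNA held 0.265% to 0.448% of the reads with amiloride in this line and 3.86% to 4.25% with DMSO, and its part in these changes was not tested. The 9 plasma cell markers summed to 2825 to 3147 CPM with amiloride and 2074 to 2160 with DMSO, with 2 called higher and 3 lower. The 4 monocyte markers summed to 1.13 to 1.55 CPM against 0.271 to 0.471. Of the 2 tested, 1 was called higher and 1 was not called. CD14 reached 1.18 CPM in this line, and LYZ, CSF1R and ITGAM stayed at or below 0.397. The 4 T cell and NK cell markers summed to 0.690 to 0.840 CPM against 2.16 to 2.37, with the 2 tested called lower. The part of these shifts in the result was not tested either.

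**Figure D2:**
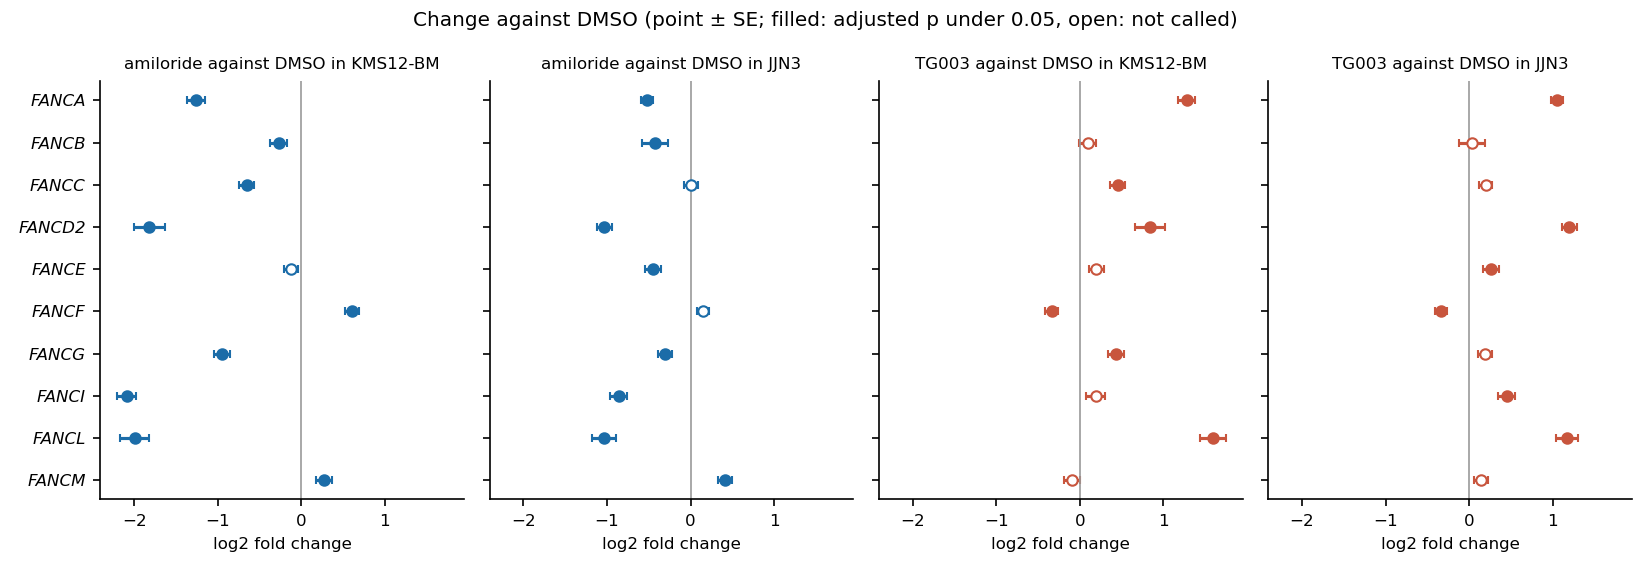
Log2 fold change against DMSO of the 10 genes in 4 comparisons (point ± SE), filled where the adjusted p was under 0.05. With amiloride, FANCI, FANCL and FANCD2 lie furthest left in both lines, and with TG003, FANCL, FANCA and FANCD2 lie furthest right.

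In JJN3, amiloride at 0.4 mM lowered 7 of the 10 genes and raised 1, where 43.6% of 15704 genes were called, 23.9% lower and 19.7% higher. The groups did not overlap for 9 of the 10, against 51.7% of all genes. The median of the 10 was -0.44 on the log2 scale, against -0.03 over all genes. The same genes led the falls. FANCD2 went from 82.1, 99.4 and 86.5 CPM to 40.7, 50.1 and 41.0 (log2 -1.03 ± 0.09, adjusted p = 5.25e-06). FANCL went from 8.98, 9.22 and 9.67 CPM to 3.83, 5.38 and 4.35 (log2 -1.03 ± 0.14, adjusted p = 0.000113). FANCI went from 167.2, 173.2 and 180.0 CPM to 90.5, 115.3 and 81.9 (log2 -0.86 ± 0.10, adjusted p = 3.39e-05). For all 3, each treated library was below each control.

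FANCA fell to 33.0, 38.3 and 33.4 CPM, without overlap with its controls (log2 -0.52 ± 0.07, adjusted p = 0.000108), and ZNF276 rose here too (0.58 ± 0.10). FANCE, not called in KMS12-BM, fell from 29.0 to 31.8 CPM with DMSO to 19.6 to 24.4 (log2 -0.45 ± 0.10, adjusted p = 0.00208). FANCG (log2 -0.30 ± 0.08, adjusted p = 0.0115) and FANCB (-0.43 ± 0.16, adjusted p = 0.044) were also lower. The call of FANCB was lost without DMSO replicate 1 or 2 or amiloride replicate 1 or 3 (adjusted p 0.0646 to 0.173), and it also missed the threshold in DESeq2 (0.0503), with upper-quartile factors (0.0529) and with the exon-junction trend described below removed (0.0565). FANCM, the translocase, rose from 15.1, 16.6 and 15.5 CPM to 21.3, 22.3 and 19.6, groups that did not overlap (log2 0.41 ± 0.08, adjusted p = 0.00157). FANCC measured 25.9, 26.2 and 22.5 CPM with DMSO and 25.3, 24.9 and 25.2 with amiloride, with a 95% interval of the log2 difference from -0.15 to 0.17. FANCF measured 46.8, 49.5 and 49.0 CPM with DMSO and 53.6, 56.0 and 52.7 with amiloride. Its ranges did not overlap, but it did not pass the test (log2 0.15 ± 0.07, adjusted p = 0.105), while GAS2 fell (-0.87 ± 0.12). Mitochondrially encoded RNA held 0.709% to 1.04% of the reads with amiloride and 2.06% to 2.61% with DMSO in this line. The summed plasma cell markers overlapped, at 4243 to 4922 CPM with amiloride and 4454 to 4803 with DMSO. Of the 9 markers, 2 were called lower and none higher, with a median log2 change of -0.34.

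The amiloride responses of the lines differed for 7 of the 10 genes by the interaction term of the fit to all 18 libraries, 6 with a higher and 1 with a lower response in JJN3. Over all genes 43.2% were called, 21.6% higher and 21.6% lower. The dose was 0.1 mM in KMS12-BM but 0.4 mM in JJN3, so line and dose cannot be told apart. FANCI had the largest term of the 10, a log2 response 1.24 ± 0.16 higher in JJN3 (adjusted p = 4.18e-06). FANCA, FANCD2, FANCG and FANCL likewise fell less in JJN3, by 0.65 to 0.97. FANCC, which fell in KMS12-BM and was not called in JJN3, had a term of 0.67 ± 0.12. FANCF, which rose in KMS12-BM and was not called in JJN3, had a term of -0.45 ± 0.11. FANCB, FANCE and FANCM did not pass, with interaction terms of -0.15 ± 0.20 (adjusted p = 0.597), -0.32 ± 0.13 (adjusted p = 0.0531) and 0.15 ± 0.13 (adjusted p = 0.392). FANCE passed without KMS12-BM DMSO replicate 2, KMS12-BM amiloride replicate 1 or JJN3 amiloride replicate 2 (adjusted p 0.0193 to 0.0485), and in DESeq2 (0.0399) and limma voom (0.0444). With the G+C trend removed, FANCE (-0.62, adjusted p = 0.000603) and FANCM (0.45, adjusted p = 0.00171) were called, and FANCA and FANCG came to 0.49 and 0.36. With the exon-junction trend removed, FANCA came to 0.46, FANCD2 to 0.49 and FANCE to -0.38 (adjusted p = 0.022).

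**Figure D3:**
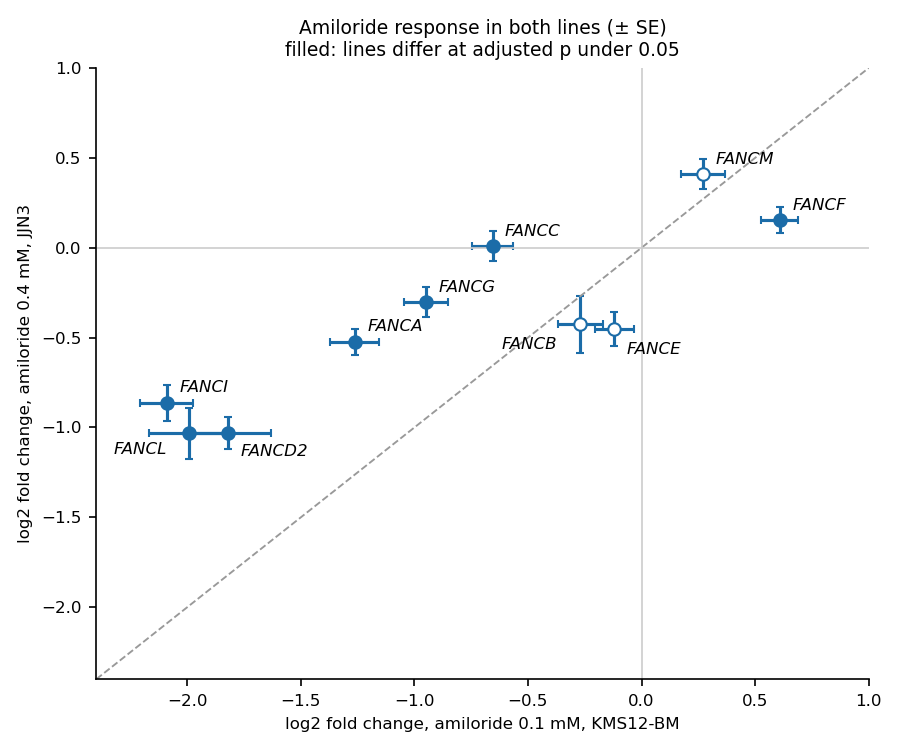
Log2 fold change with amiloride in KMS12-BM (0.1 mM, horizontal) against that in JJN3 (0.4 mM, vertical), ± SE, with the line of equal change dashed; filled points are the 7 genes whose responses differed between the lines. Of the filled points, 6 lie above the dashed line and FANCF lies below it.

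FANCA, FANCD2 and FANCL were higher with TG003 than with DMSO in both lines. The TG003 libraries also differed from the rest in how reads were placed. Drug and processing cannot be told apart in any TG003 comparison here or below. In KMS12-BM 5 of the 10 genes were higher and 1 lower, where 58.6% of genes were called, 26.9% higher and 31.7% lower, and the groups did not overlap for 7 of the 10, against 68.6% of all genes. In JJN3 5 were higher and 1 lower, where 58.3% were called, 26.2% higher and 32.1% lower, and the groups did not overlap for 9 of the 10, against 66.3%. The median log2 changes of the 10 were 0.32 and 0.23, against -0.03 and -0.04 over all genes. These comparisons use the same DMSO libraries as those of amiloride.

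FANCL measured 29.0, 26.1 and 27.0 CPM with TG003 in KMS12-BM, above its controls of 7.95 to 10.1 (3.02-fold, log2 1.60 ± 0.16, adjusted p = 5.12e-06). In JJN3 it measured 17.0, 20.6 and 23.6 CPM against 8.98 to 9.67 (log2 1.17 ± 0.13, adjusted p = 6.92e-06). Its neighbour on the opposite strand, VRK2, shares 572 bases with it and also rose, by 1.15 ± 0.10 and 0.83 ± 0.12. FANCA reached 58.0, 53.1 and 56.2 CPM in KMS12-BM (log2 1.28 ± 0.10, adjusted p = 9.98e-07). In JJN3 it reached 98.4, 102.9 and 103.4 CPM (log2 1.05 ± 0.07, adjusted p = 3.25e-08), again with no overlap with DMSO.

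FANCD2 reached 165.3, 159.8 and 186.4 CPM in KMS12-BM (log2 0.84 ± 0.18, adjusted p = 0.00238) and 198.6, 202.0 and 202.0 CPM in JJN3 (log2 1.20 ± 0.09, adjusted p = 8.33e-08). FANCI, its partner, moved less. It measured 206.0, 156.7 and 193.2 CPM in KMS12-BM, overlapping its controls (log2 0.19 ± 0.11, adjusted p = 0.169). Without TG003 replicate 2, FANCI passed there (log2 0.29, adjusted p = 0.0394). In JJN3 it measured 221.7, 237.5 and 236.3 CPM and was called higher (log2 0.45 ± 0.10, adjusted p = 0.0017). The ratio of FANCD2 to FANCI per kb was therefore 0.745 to 0.947 with TG003 in KMS12-BM and 0.790 to 0.832 in JJN3, above the range with DMSO in each line (up to 0.614 and 0.533). FANCD2, unlike FANCI, has near-identical copies elsewhere in the genome. The part of read placement, which differed in the TG003 libraries, in this ratio was not tested.

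FANCF fell with TG003, to 26.6, 29.5 and 28.0 CPM in KMS12-BM (log2 -0.34 ± 0.08, adjusted p = 0.00426) and to 34.5, 37.8 and 40.4 CPM in JJN3 (log2 -0.34 ± 0.07, adjusted p = 0.0015). GAS2 also fell in JJN3 (log2 -0.90 ± 0.12). FANCC and FANCG were called higher in KMS12-BM alone, at 0.45 ± 0.09 (adjusted p = 0.00123) and 0.43 ± 0.10 (adjusted p = 0.0024), against 0.20 ± 0.08 (adjusted p = 0.0556) and 0.19 ± 0.08 (adjusted p = 0.0648) in JJN3. FANCE was called in JJN3 alone, at 0.26 ± 0.09 (adjusted p = 0.027) against 0.20 ± 0.09 (adjusted p = 0.0658). In JJN3, FANCC also passed without TG003 replicate 3 (adjusted p = 0.0492) and FANCG without TG003 replicate 2 (adjusted p = 0.0496). Leaving out DMSO replicate 2 or 3 or TG003 replicate 1 or 3 ended that call of FANCE (adjusted p 0.0567 to 0.109). No label states a pairing of libraries, and the main test used none. With same-numbered libraries taken as a block, FANCC and FANCG passed in JJN3 (adjusted p = 0.0343 and 0.037). FANCE then passed in KMS12-BM (adjusted p = 0.0314). FANCB and FANCM did not pass in either line, with log2 changes between -0.09 and 0.14.

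None of the 10 genes differed between the lines in its TG003 response by edgeR's interaction term, where 13.9% of all genes were called, 6.8% higher and 7.13% lower. Of the 10, 2 had an unadjusted p under 0.05, FANCC and FANCL, and DESeq2 and limma voom also called 0. The interaction terms, JJN3 minus KMS12-BM, ran from -0.45 ± 0.21 for FANCL (95% interval -0.87 to -0.03) to 0.33 ± 0.22 for FANCD2 (95% interval -0.09 to 0.76), which leaves room for sizeable differences.

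The median change with TG003 rose with exon junctions per kb over coding genes, and the Fanconi genes followed this trend only in part. Over coding genes in KMS12-BM, the median log2 change went from -0.37 in single-exon genes through 0.00 in the middle quintile by junctions per kb to 0.28 in the top quintile, and in JJN3 from -0.34 through 0.01 to 0.36. The single-exon FANCF, at -0.34 in both lines, lay at the median of single-exon genes. FANCA, FANCD2 and FANCL, in the top quintile, lay above its median in both lines, and FANCI lay below it in KMS12-BM and above it in JJN3. FANCG, near the lower edge of that quintile, lay above the median in KMS12-BM (0.43) and below it in JJN3 (0.19). In the middle quintile, FANCC stood at 0.45 in KMS12-BM and 0.20 in JJN3, FANCB at 0.09 and 0.04, and FANCM at -0.09 and 0.14. With this trend removed from each library, an alternative chosen after the data were seen, FANCA came to 0.84 in KMS12-BM and 0.54 in JJN3, and FANCL to 1.15 and 0.64, all still called. FANCD2 came to 0.59 in JJN3 (adjusted p = 0.000102) and to 0.32 in KMS12-BM, no longer called (adjusted p = 0.0752). FANCF came to 0.01 (adjusted p = 0.963) and 0.04 (adjusted p = 0.621). FANCI came to -0.26 in KMS12-BM (adjusted p = 0.0457) and -0.08 in JJN3 (adjusted p = 0.517). FANCG came to 0.26 and -0.03, and FANCE in JJN3 to 0.21 (adjusted p = 0.0654). The summed level of 9 plasma cell markers was also lower with TG003, 905 to 961 CPM against 2074 to 2160 with DMSO in KMS12-BM and 2203 to 2437 against 4454 to 4803 in JJN3, and its part in these changes was not tested.

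**Figure D4:**
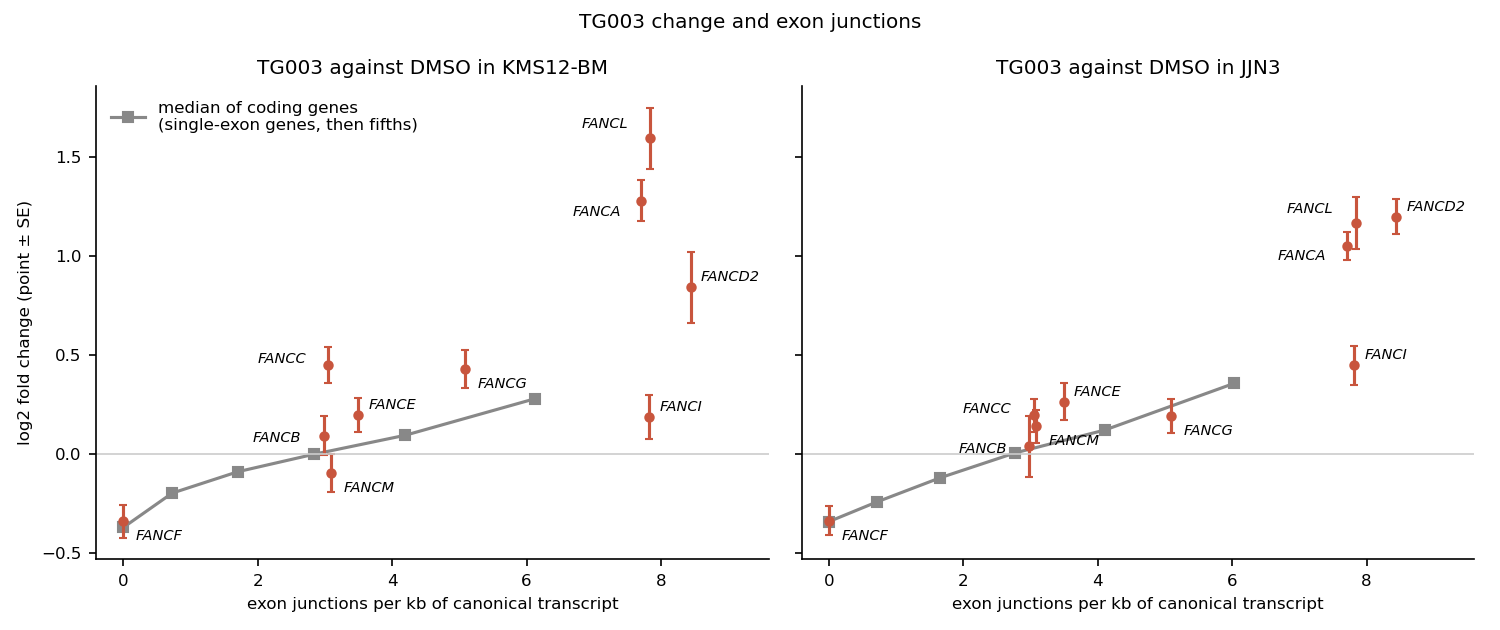
Log2 fold change with TG003 (± SE) against exon junctions per kb of canonical transcript for the 10 genes (red), with the median of coding genes in bins of that measure in grey. FANCF lies on the grey line at 0 junctions, and FANCA, FANCL and FANCD2 lie above its right end in both lines.

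At the same dose of 0.4 mM in JJN3, amiloride and TG003 separated 9 of the 10 genes, 7 lower and 2 higher with amiloride, where 62.2% of genes were called, 28.9% lower and 33.3% higher. The groups did not overlap for 9 of the 10, against 67.3% of all genes. The drugs and the difference in read placement cannot be told apart in this comparison either. FANCD2 differed 4.69-fold (log2 -2.23 ± 0.09, adjusted p = 1.21e-10), FANCL 4.59-fold (-2.20 ± 0.14, adjusted p = 1.53e-08) and FANCA 2.98-fold (-1.58 ± 0.07, adjusted p = 4.07e-10). FANCI followed at -1.31 ± 0.10, FANCE at -0.72 ± 0.09 and FANCG at -0.50 ± 0.08. FANCB was lower by 0.47 ± 0.16 (adjusted p = 0.0197), with overlapping ranges, and was not called without amiloride replicate 3 or TG003 replicate 2 or 3 (adjusted p 0.0684 to 0.103). FANCF and FANCM were higher with amiloride, by 0.49 ± 0.07 and 0.27 ± 0.08, and FANCC did not pass (-0.19 ± 0.08, adjusted p = 0.0617). With the exon-junction trend removed, FANCF came to 0.09 (adjusted p = 0.297), FANCA to -0.97, FANCI to -0.69 and FANCG to -0.22, and FANCD2 and FANCL to -1.52 and -1.57. In KMS12-BM the doses of the drugs differed, and no such comparison was made.

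Across the 18 libraries, with each line's mean taken off, the genes whose log2 CPM was most like that of FANCD2 among 8722 coding genes were AKR1A1 (Pearson r = 0.985), the damage-recognition gene DDB2 (0.984), the replicative polymerase gene POLE (0.982), PHKA2 (0.981) and HDAC6 (0.980). The libraries share their drug groups, so these values describe the pattern and carry no test. All 5 have between 4.96 and 6.80 exon junctions per kb. The top quintile of multi-exon coding genes tested began at 5.02 in KMS12-BM and at 4.93 in JJN3. The 18 libraries include the 6 of TG003, so drug and processing cannot be told apart in these values. The part of exon junctions in them was not tested. Of the other Fanconi genes, FANCL was closest to FANCD2 (r = 0.972), followed by FANCA (0.963), FANCI (0.942) and FANCG (0.904). FANCC, FANCE and FANCB had r between 0.734 and 0.809, and FANCM (-0.722) and FANCF (-0.934) ran opposite.

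Other genes of the pathway were followed in lists, given as counts and medians, to be read against the shares of all genes called: 68.7% and 43.6% with amiloride and 58.6% and 58.3% with TG003, in KMS12-BM and JJN3. For the TG003 counts, drug and processing cannot be told apart. Here and below, list genes are given from the main test alone, without the G+C and exon-junction alternatives given for the 10 genes. Of 6 associated proteins of the core complex, amiloride lowered 4 and raised 1 in KMS12-BM. FAAP100, the partner of FANCB and FANCL in the catalytic module, fell from 18.6 to 1.61 CPM (log2 -3.51 ± 0.24, adjusted p = 3.77e-07), more than any of the 10 genes. CENPX, a histone-fold protein that binds FANCM, fell by 0.996 ± 0.114, and FAAP24, the other partner of FANCM, rose by 0.48 ± 0.12. In JJN3, 2 of the 6 were lower and none higher: UBE2T, the conjugating enzyme that works with FANCL, at -0.73 ± 0.14, and FAAP24 at -0.61 ± 0.13. TG003 raised 1 of the 6 in each line, UBE2T, by 0.77 ± 0.18 in KMS12-BM and 0.56 ± 0.13 in JJN3.

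Of 10 tested deubiquitinase and incision genes, amiloride lowered 4 and raised 3 in KMS12-BM (median -0.16) and lowered 2 and raised 1 in JJN3 (median -0.06). The share called was close to that of all genes in KMS12-BM (68.7%) and below it in JJN3 (43.6%). The nuclease scaffold SLX4 fell from 17.1 to 2.53 CPM in KMS12-BM (log2 -2.74 ± 0.16), and the nuclease subunit ERCC1 fell by 1.118 ± 0.166. WDR48, which activates the enzyme that removes ubiquitin from FANCD2, rose from 86.9 to 296.0 CPM (log2 1.77 ± 0.11), and ERCC4, the partner of ERCC1, rose by 1.10 ± 0.08. In JJN3 the changes were smaller, SLX4 -0.41 ± 0.08 and ERCC4 0.27 ± 0.07. TG003 raised 3 and lowered 1 in KMS12-BM and raised 2 and lowered 1 in JJN3, led by ERCC1 (1.02 ± 0.16 and 1.59 ± 0.13). Both are smaller shares than the 58.6% and 58.3% of all genes called.

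Of 12 downstream recombination and translesion genes, amiloride lowered 3 and raised 2 in KMS12-BM (median 0.07) and lowered 6 in JJN3 (median -0.23). The 5 of 12 called in KMS12-BM are a smaller share than the 68.7% of all genes, and the 6 of 12 in JJN3 are near 43.6%. The helicase gene BRIP1 fell from 20.95 to 2.499 CPM in KMS12-BM (log2 -3.07 ± 0.16) and by 0.72 ± 0.09 in JJN3. PALB2, which links BRCA1 to BRCA2, fell by 1.51 ± 0.10 in KMS12-BM, where RAD51C rose by 0.62 ± 0.08. TG003 raised 6 and lowered 2 in KMS12-BM and raised 5 and lowered 3 in JJN3, with BRCA2 up by 1.57 ± 0.12 and 0.83 ± 0.12. The 8 of 12 called in each line are near the 58.6% and 58.3% of all genes. Of 11 tested checkpoint and BLM partners, amiloride lowered 3 and raised 1 in KMS12-BM and lowered 4 and raised 1 in JJN3, and TG003 raised 5 and lowered 2, and raised 6 and lowered 1. With amiloride, the share called was below that of all genes in KMS12-BM (68.7%) and near it in JJN3 (43.6%). With TG003, it was near that of all genes in both lines (58.6% and 58.3%).

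Cell cycle genes were followed beside the pathway. Of all genes, 68.7% and 43.6% were called with amiloride and 58.6% and 58.3% with TG003, in KMS12-BM and JJN3. Of 16 G1/S and replication genes, amiloride lowered 14 and raised 1, MCM7, in KMS12-BM (median -0.84), and lowered 9 and raised none in JJN3 (median -0.35). CDC45 fell by 2.99 ± 0.15 and RRM2 by 2.91 ± 0.11 in KMS12-BM, and by 1.11 ± 0.13 and 1.03 ± 0.11 in JJN3. Of 14 G2/M genes, 6 were higher and 1 lower with amiloride in KMS12-BM (median 0.23), whereas 9 were lower and none higher in JJN3 (median -0.44). With TG003, 6 of the G1/S genes were higher and 2 lower in KMS12-BM, and 2 were higher and 3 lower in JJN3. Both are smaller shares than those of all genes called. Of the G2/M genes, 1 was higher and 6 lower in KMS12-BM, and 2 were higher and 7 lower in JJN3. The mitotic kinase gene AURKB was the 1 higher in KMS12-BM (0.39 ± 0.15) and was also higher in JJN3 (0.45 ± 0.08). PLK1 was lower by 1.04 ± 0.12 in KMS12-BM and 0.65 ± 0.09 in JJN3. CCNA2 was lower by 0.71 ± 0.13 in KMS12-BM and AURKA by 0.57 ± 0.07 in JJN3. With amiloride the Fanconi genes had medians of -0.80 in KMS12-BM and -0.44 in JJN3, beside -0.84 and -0.35 for the G1/S list and 0.23 and -0.44 for the G2/M list. Whether a change in the share of cells in each phase goes with these values was not tested.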

How the data were processed

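Poly(A)-selected RNA was sequenced with a strand-specific kit from 18 libraries in 6 groups of 3, per the labels' protocols. Per the submitters' processing notes, the authors trimmed reads with cutadapt 1.4, aligned them to hg19 with TopHat2 2.0.11, counted them per gene with HTSeq 0.6.1p1 and compared expression with DESeq2 1.12.4. The annotation, overlap mode and strand setting of the counting were not given in the sources used here. Deposited files hold whole-number read counts per Ensembl gene, 23707695 to 50570234 in genes per library. HTSeq's records of reads in no gene (6.42% to 13.6%), in more than 1 gene (1.65% to 2.84%) and at more than 1 place (7.79% to 17.4%) were left out of library sizes and tests. The authors' normalized tables were not used here. No pair of libraries was identical.

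Identifiers were joined to GENCODE v44 lifted to GRCh37, which matched 55538 of 57905. The main test was edgeR 4.0.16 in R 4.3.3: filterByExpr (minimum count 10, minimum total 15), TMM scaling, robust quasi-likelihood F test, Benjamini-Hochberg adjustment over all genes tested, threshold 0.05. Comparisons within a line used its 9 libraries, and comparisons across lines used all 18, giving 6 pairwise comparisons and 2 interactions. The SE is the log2 change divided by the square root of F, an approximation. The 95% intervals are built from it as for a normal distribution, so they are narrower than the F test implies. For FANCF with amiloride in JJN3 the interval is 0.011 to 0.295, though the unadjusted p of the F test is 0.0548. CPM use TMM factors over all 18 libraries. Length, junctions and G+C content are those of the canonical transcript. Near-identical copies were searched with BLAST+ 2.17.0. Promoters came from RefSeq, GRCh38.p14. The scripts were tested on simulated data.

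All 10 members are named in every comparison. Other pathway genes are at most the 2 with the largest change per list, direction and comparison, among those called with a mean of at least 1 CPM and ranges that do not overlap. The members and lists were chosen with earlier results of these data known. No label states a pairing, and the main test used none. Same-numbered libraries, by the order of the library numbers in the titles, deviated weakly together in the TG003 comparisons (r 0.108 to 0.271 in KMS12-BM and 0.239 to 0.281 in JJN3 over 11110 genes). In the amiloride comparisons r was 0.0936 to 0.251 in KMS12-BM, which overlaps that of TG003, and 0.0191 to 0.0869 in JJN3. These values do not settle whether the libraries are paired, so the block was run as an alternative in all comparisons. Alternatives were DESeq2 and upper-quartile factors, omitting the filter, requiring 1 CPM in 3 libraries, DESeq2 1.42.0, limma 3.58.1 voom, the replicate block, a G+C trend, both together, pseudogene counts added, only the groups compared, each library left out, and, added later, an exon-junction trend.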

Additional observations from a re-analysis of the deposited data

Results flagged for a closer look

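The amiloride responses of 7 of the 10 genes differed between the lines by the interaction test of edgeR's quasi-likelihood fit to all 18 libraries, where 43.2% of all genes were called, 21.6% higher and 21.6% lower. As JJN3 minus KMS12-BM on the log2 scale, the terms were 0.75 ± 0.13 for FANCA (adjusted p = 8.43e-05), 0.67 ± 0.12 for FANCC (adjusted p = 0.000152) and 0.80 ± 0.22 for FANCD2 (adjusted p = 0.00705). They were 0.65 ± 0.13 for FANCG (adjusted p = 0.000333), 1.24 ± 0.16 for FANCI (adjusted p = 4.18e-06), 0.97 ± 0.24 for FANCL (adjusted p = 0.00236) and -0.45 ± 0.11 for FANCF (adjusted p = 0.00232). The drug was given at 0.1 mM in KMS12-BM but 0.4 mM in JJN3, so line and dose cannot be told apart. FANCC is the gene of the 7 that moved in KMS12-BM (-0.66 ± 0.09) and stood at 0.01 ± 0.08 in JJN3.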

How the results depend on the processing

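Of the 8 counts of called genes, 7 stayed within 1.5 times of the reported count under every alternative run. The exception was TG003 in JJN3, where 3 of 10 were called with the exon-junction trend removed, against 6. Among changes called in either setting, the sign of the log2 change reversed in 8 cases, each for a single gene. In none of the 8 was the gene called in both directions. With the G+C trend removed, amiloride in KMS12-BM gave 0.30 for FANCE and -0.11 for FANCM, and 0.31 and -0.11 with the replicate block as well. With the exon-junction trend removed, TG003 gave FANCF 0.005325 in KMS12-BM and 0.04424 in JJN3, and FANCI -0.2595 and -0.08171. The cause was not tested. With a library left out in turn, calls ranged from 7 to 8 with amiloride in KMS12-BM, 7 to 8 in JJN3, 6 to 7 with TG003 in KMS12-BM, 5 to 7 in JJN3, 8 to 9 between the drugs and 7 to 8 for the amiloride interaction, and were 6 between the lines and 0 for the TG003 interaction each time. With the replicate block, the pairing by library number gave 7 calls with TG003 in KMS12-BM, 8 in JJN3, 10 between the drugs and 8 for the amiloride interaction, adding FANCC between the drugs (-0.18, adjusted p = 0.0422) and FANCE in the interaction (-0.33, adjusted p = 0.0419), and it ended no call. Upper-quartile factors took FANCM with amiloride in KMS12-BM to an adjusted p of 0.0837, and no filter took FANCB and FANCM there to 0.0542 and 0.0607. FANCL, at 1.58 CPM in its lowest library, and FANCB have the fewest reads, which limits what can be seen for them.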
